A study of Mus musculus with 72 samples.

Results

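The genes described here are those of mouse chromosome 5, followed as RNA from each parental chromosome in 2 female hybrid cell lines. They were taken by position: every gene that the count files place on chromosome 5, except 7 genes left out by name, which gave 1299 of 1306 chromosome 5 genes and 1299 of 22556 genes in all. Of the 1299, 568 had at least 30 fragments assigned to a parental chromosome in each of the 72 libraries and were measured for allele share, against 8140 genes over the whole genome. The remaining chromosome 5 genes were too low for a share, and those among them that passed the filter on low counts were tested for total RNA alone.

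In an F1 hybrid each autosomal gene is present as a maternal and a paternal copy, and sequence differences between the 2 strains let a sequenced fragment be assigned to its parental chromosome. Most genes are transcribed from both copies at similar rates, so the share of fragments from either parent lies near the middle of the scale. When the number of copies of a chromosome changes, the RNA of its genes usually moves with the number of copies, and allele shares along the whole chromosome move together, while single genes can depart from the rest through feedback on their own transcripts, imprinting or strain differences in their regulatory sequence. Copy number itself was not analysed here.

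The cells were XX F1 mouse embryonic stem cells (mESCs) of a Dom/129S x Cast cross (129/Sv and CAST/EiJ strains), in which a TetOn promoter had replaced the promoter of Xist, the RNA that silences the inactive X, on the 129S X chromosome (iXist-ChrX_Dom, here the Dom line) or on the Cast X chromosome (iXist-ChrX_Cast, the Cast line). Each line was studied as 1 wild-type (WT) clone and as SmcHD1 knockout (KO) clones made with CRISPR-Cas9, A3 from the Dom line and D5 and G6 from the Cast line, so line and clone cannot be told apart, and all WT and KO comparisons between lines compare these clones. Chromatin-associated RNA (ChrRNA-seq) was collected during doxycycline-induced Xist expression under differentiation to neural precursor cells (NPCs) at days 2, 3, 5 and 7, with 2 or 3 replicates for each clone and day, and at days 15, 21 and 35 with 1 replicate each. Among the libraries used here, uninduced ES cells were those of the KO clones (A3 n = 2, D5 n = 2, G6 n = 1), and day 52 was held by the Dom line alone. This gave 12 replicates of Dom WT, 14 of A3, 14 of Cast WT, 13 of D5 and 12 of G6, with 7 Cast-line replicates sequenced as an R1 and an R2 library, which were joined. The study describes the replicates up to day 7 as repeated time courses. Read by replicate number, the 8 Dom WT and 11 Cast WT replicates of days 2 to 7 then come from 2 and 3 courses, and the days of a course are not independent. The tests below treat them as separate samples, so their p-values are too small to that extent, and the counts with 1 value per course are given beside the first results. For the late days the study describes cells that were kept and passaged. Whether days 15, 21 and 35 of a clone come from 1 culture is not in the labels. The late and interaction tests also treat these days as separate samples, so their p-values may be too small as well. No value per late culture was computed.

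The Dom-line libraries held 9344054 to 31216487 fragments in genes and the Cast-line libraries 13211298 to 31107643. The median chromosome 5 gene measured for share had 618 allele-assigned fragments per replicate. Xist, in CPM (fragments of a gene scaled to the total of its library), was 131 to 1009 in uninduced ES cells and 3902 to 35184 at days 2 to 7, and every induced library lay above every uninduced one. RNA of Smchd1, the gene targeted in the KO clones, was 516 to 709 CPM in WT and 416 to 616 in KO libraries at days 2 to 7, and the RNA level over the whole gene therefore does not check the knockout. The summed level of 6 pluripotency markers was 1201 to 1807 in ES cells and 2.82 to 187 at days 15 to 35, and that of 6 NPC markers 26.8 to 61.8 and 129 to 914. The 5 markers of fibroblast feeders, the inactivated cells on which the mESCs were grown before pre-plating, summed to 7.59 to 124 at days 2 to 7 and to 224 to 15048 at days 15 to 35.

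To show the kind of start region that these genes have, the promoters of 3 genes that the data set apart from their neighbours are printed here: Pebp1, under the limit for the allele share set out below, and Mrps17 and Camkk2, under that for total RNA. Each window covers 300 bases, from 250 bases before the annotated start to 50 after it, on GRCm38.p6 (RefSeq) and on the gene's own strand, with every CG dinucleotide in capitals. They are chr5:117287515-117287814 (minus strand) for Pebp1, chr5:129715247-129715546 (plus strand) for Mrps17 and chr5:122779361-122779660 (minus strand) for Camkk2. For Mrps17 the RefSeq start lies slightly upstream of the start in the count files.
Pebp1: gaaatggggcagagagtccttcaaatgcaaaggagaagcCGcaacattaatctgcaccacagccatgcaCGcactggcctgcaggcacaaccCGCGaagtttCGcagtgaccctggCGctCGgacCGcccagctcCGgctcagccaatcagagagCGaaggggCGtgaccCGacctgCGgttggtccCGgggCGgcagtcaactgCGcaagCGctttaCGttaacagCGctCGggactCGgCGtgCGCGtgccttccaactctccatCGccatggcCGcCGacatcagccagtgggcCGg
Mrps17: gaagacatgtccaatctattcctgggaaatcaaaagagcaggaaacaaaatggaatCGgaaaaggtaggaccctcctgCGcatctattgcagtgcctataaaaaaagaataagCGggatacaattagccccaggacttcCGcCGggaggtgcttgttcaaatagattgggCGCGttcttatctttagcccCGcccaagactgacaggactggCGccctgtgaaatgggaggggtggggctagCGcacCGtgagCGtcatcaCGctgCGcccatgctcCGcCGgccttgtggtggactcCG
Camkk2: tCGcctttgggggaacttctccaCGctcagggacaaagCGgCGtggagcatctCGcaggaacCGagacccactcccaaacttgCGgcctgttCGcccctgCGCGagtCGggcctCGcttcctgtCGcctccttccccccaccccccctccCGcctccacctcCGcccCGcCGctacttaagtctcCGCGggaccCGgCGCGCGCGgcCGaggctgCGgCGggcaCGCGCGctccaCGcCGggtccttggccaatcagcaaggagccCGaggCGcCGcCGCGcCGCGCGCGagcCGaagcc
The windows held 28, 17 and 42 CG. RefSeq promoters of the 568 genes (575 windows for 464 matched genes) held a median of 25 CG (quartiles 16.5 to 33), and all of them held at least 1, against a median of 7 (quartiles 3 to 20) and 94.6% with at least 1 over all 32851 promoters of this length. The letters CG read the same on both strands and were counted without overlap. The count is a description of these windows, and the 3 genes fall on either side of the chromosome 5 median. The 568 genes had passed the 30-fragment minimum and the 32851 promoters were not filtered, so the contrast cannot be read as particular to chromosome 5. Promoters of the 8140 genes under the same minimum were not counted.

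Of 3 groups of libraries that stood apart within chromosome 5, the first was clone D5. In its 13 replicates the 28 measured genes from Fbxl18 to Bud31 (chr5:142871788-145148074) had a median Cast share of 0.754 to 0.783. The Cast share is the number of fragments assigned to the Cast chromosome over those assigned to either, and in the same segment it was 0.608 to 0.703 in the 26 replicates of Cast WT and G6. Actb, which encodes the cytoskeletal protein beta-actin, lies in this segment, but its share varied widely and overlapped between clones. It was 0.322 to 0.793 in D5, 0.355 to 0.716 in Cast WT and 0.290 to 0.750 in G6. The second was replicate number 2 of Dom WT at days 2, 3, 5 and 7 together with Dom WT days 21, 35 and 52. In these 7 replicates the 25 genes past Zscan25 (chr5:146209193-151651208), which include the recombination gene Brca2 and the clamp-loader gene Rfc3, had a median share of 0.327 to 0.338, against 0.474 to 0.489 in the other 5 Dom WT replicates and 0.472 to 0.500 in A3. Their RNA level relative to the other autosomes, on the log2 scale, was also higher in these 7 replicates, at 0.14 to 0.49 against -0.30 to -0.10 in the other 5. The measured genes between these segments, Ptcd1 to Zscan25, were counted in neither but showed both differences. Their mean share per gene was 0.759 to 0.796 in D5 against 0.650 to 0.712 in Cast WT. In the 7 Dom WT replicates it was 0.302 to 0.384, against 0.453 to 0.514 in the other 5. The D5 difference thus reached Zscan25, and the Dom WT difference was already present at Ptcd1. The third was Cast WT at day 35, with the lowest median share of any Cast-line replicate, 0.595 over the 568 genes. Joined libraries could also differ: R1 and R2 of D5 replicate 1 had median shares of 0.670 and 0.635 at day 3, 0.683 and 0.636 at day 5 and 0.692 and 0.636 at day 7. In G6 they had 0.667 and 0.643 at day 35. At days 3, 5 and 7 G6 had 0.637 and 0.637, 0.645 and 0.642, and 0.648 and 0.646. These sets were seen in the data, and several counts that rest on them are given with and without them.

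Chromosome 5 RNA in the Cast line came more from the Cast chromosome, in every clone and at every stage. The median Cast share of the 568 genes was 0.463 to 0.483 in the 26 Dom-line replicates and 0.595 to 0.697 in the 39 Cast-line replicates, so the lines did not overlap. Genes on the reference autosomes, which are the other autosomes without 2 that are named below, had a median share of 0.473 to 0.489. This range covers the same replicates of both lines, and the shares of those 2 chromosomes are not part of it. For reference, 2 Cast copies to 1 Dom copy with equal output from each would give a share of 0.667, a value of arithmetic and not a measurement.

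**Figure D1:**
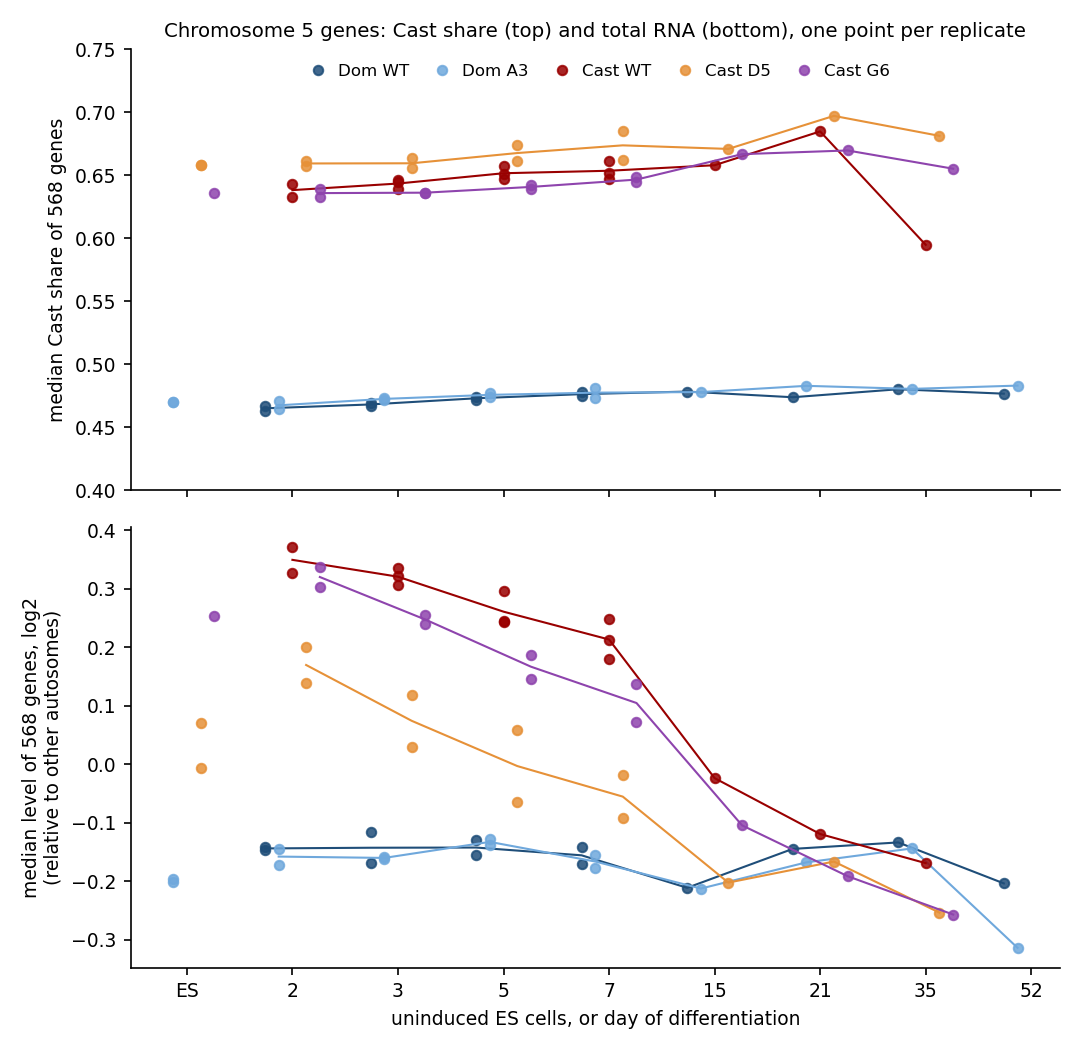
Median over the 568 chromosome 5 genes in each replicate (points) by day, for Dom WT, A3, Cast WT, D5 and G6. Top: Cast share. Bottom: log2 RNA level of the same genes relative to the reference autosomes. Every Cast-line point in the top panel lies at 0.595 or above and every Dom-line point at 0.483 or below, while in the bottom panel the Cast-line points go from at most 0.372 at day 2 to -0.169 or below at day 35.

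At days 2 to 7, 566 of 568 genes had a higher Cast share in Cast WT (n = 11) than in Dom WT (n = 8) and none a lower one (limma on the share with day in the model, adjusted p under 0.05 over all 8140 genes), where 10.4% of all genes tested were higher. The median difference was 0.173 with quartiles of 0.161 and 0.185, against -0.0022 over 7296 other autosomal genes, chromosomes 8 and 12 included. Of these 7296, 280 were higher and 884 lower in share. Chromosomes 8 and 12 were left out of the reference autosomes. That reference is the one behind each replicate's share over other autosomes and each level relative to other autosomes, throughout the text. D5 and G6 (n = 16) against A3 (n = 8) gave the same count, 566 of 568 (10% of all genes), with a median of 0.176. With days 3, 5 and 7 summed to 1 value per time course, 553 genes were higher in WT (2 against 3 courses, median 0.174) and 560 in KO cells (2 against 4, median 0.175). The spread between replicates was small beside this difference: for 507 of 568 genes every Cast WT replicate lay above every Dom WT replicate, against 6.36% of all 8140 genes, and for 510 genes the KO replicates did not overlap (6.38% of all). At days 15 to 35, WT and KO together (6 Dom-line and 9 Cast-line replicates), 564 genes were higher (7.92% of all) with a median of 0.181. Uninduced ES cells of the KO clones already showed it, with 487 of 568 genes higher (6.58% of all) and a median of 0.177 from 2 A3 against 3 Cast-line replicates, although without A3 replicate 1 the count was 354. Expressed as the log2 ratio of Cast to Dom fragments, the median line difference was 1.03 in WT and 1.05 in KO cells at days 2 to 7, 1.09 at days 15 to 35 and 1.06 in ES cells.

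The clones of the Cast line were not equal. At days 2 to 7 the lowest, median and highest median shares were 0.633, 0.647 and 0.661 in Cast WT, 0.656, 0.662 and 0.685 in D5 and 0.632, 0.639 and 0.649 in G6. D5 and G6 did not overlap with R1 and R2 joined, and Cast WT overlapped with both. The R2 libraries of D5 replicate 1 alone, at 0.635 to 0.636, lay within the range of G6. Dom WT (0.463 to 0.478) and A3 (0.464 to 0.481) covered nearly the same range. Against A3, the median share difference was 0.187 for D5 alone and 0.164 for G6 alone. With R1 alone in place of the joined libraries the KO median was 0.180.

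Most genes moved together along the chromosome. In 10 consecutive windows of 57 genes (55 in the last), the median share difference in WT was 0.168 to 0.177 in the first 9 windows and 0.217 in the last, which ran from Rbak to Rfc3. In KO cells it was 0.171 to 0.179 and 0.202. The last window holds the Dom WT segment and most of the D5 segment, whose first genes, Fbxl18 to Rnf216, are in the window before, and the largest share differences in WT, such as 0.278 for Fry and 0.255 for Pds5b, a cohesin regulator, came from it (both named after their values were seen). Without the 60 genes from Tnrc18 to the end, 506 of 508 genes were higher in WT and 506 of 508 in KO cells, and the median total RNA difference described below was 0.26 in KO cells.

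**Figure D2:**
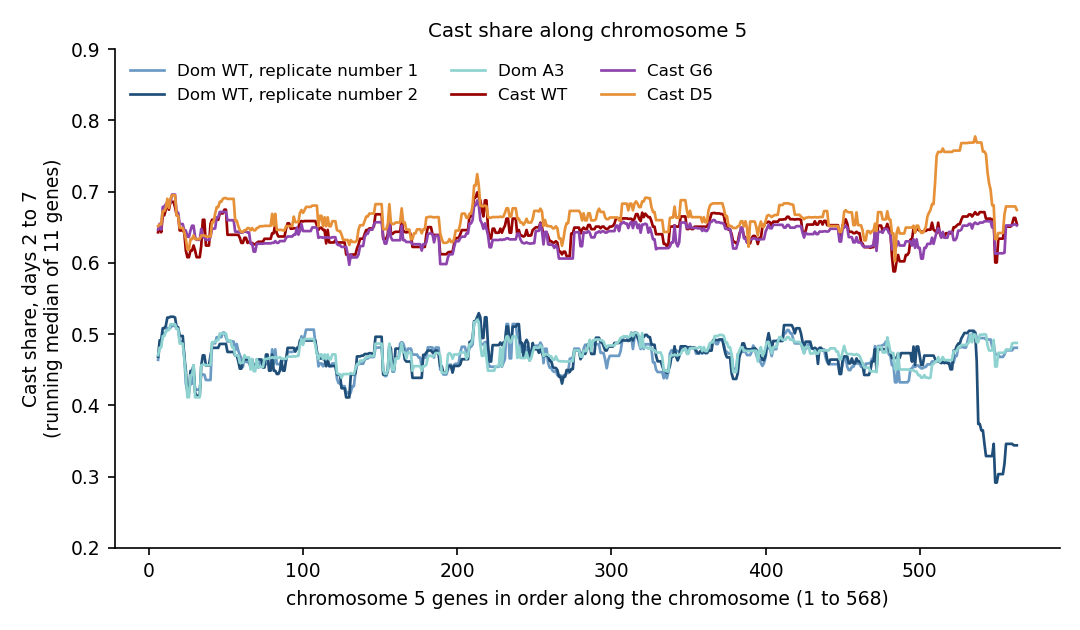
Running median over 11 consecutive genes of the Cast share at days 2 to 7, by gene order along chromosome 5, for Dom WT replicate number 1, Dom WT replicate number 2, A3, Cast WT, G6 and D5. The Cast-line traces run above the Dom-line traces over the whole length, D5 rises in the segment where its share was 0.754 to 0.783, and Dom WT replicate number 2 drops at the distal end, where its share was 0.327 to 0.338.

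The 2 alleles did not contribute equally to the difference. RNA of each allele was scaled by library sizes and trimmed-mean (TMM) factors of the total counts, and all differences are log2, Cast line minus Dom line. At days 2 to 7 Cast-allele RNA was higher in Cast WT for 557 of 568 genes (edgeR quasi-likelihood test, adjusted p under 0.05, 17.5% of all genes), with a median of 0.88. Dom-allele RNA was lower for 148 genes (8.67% of all) and higher for 20, with a median of -0.16. In KO cells 530 genes were higher on the Cast allele (11.8% of all, median 0.71) and 278 lower on the Dom allele (8.98% of all, median -0.34), while 1 was higher on the Dom allele. At days 15 to 35, 278 genes were higher on the Cast allele (4.93% of all, median 0.51) and 302 lower on the Dom allele (4.36% of all, median -0.59). In ES cells 376 genes were higher on the Cast allele (7.01% of all, median 0.88) and 8 lower on the Dom allele (0.381% of all, median -0.18). These balances move with the scaling: with library totals in place of TMM, 247 genes were lower on the Dom allele in WT, and at days 15 to 35 the counts were 158 higher on the Cast allele and 394 lower on the Dom allele.

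**Figure D3:**
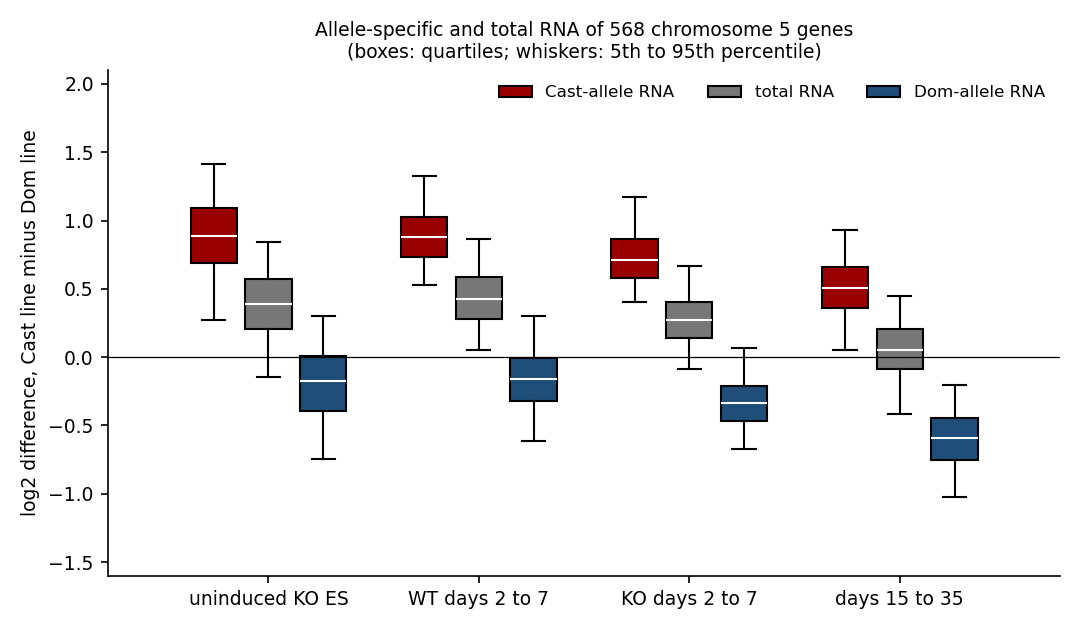
Log2 difference, Cast line minus Dom line, of Cast-allele, total and Dom-allele RNA over the 568 genes, for uninduced KO ES cells, WT days 2 to 7, KO days 2 to 7 and days 15 to 35. Boxes give quartiles and medians and whiskers the 5th to 95th percentiles; the Cast-allele medians are 0.88, 0.88, 0.71 and 0.51 and the Dom-allele medians -0.18, -0.16, -0.34 and -0.59 in this order.

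Total RNA of chromosome 5 genes was higher in the Cast line at days 2 to 7. In these bulk samples, less RNA per cell and fewer cells of a type cannot be told apart. In WT, 554 of 971 genes were higher and 12 lower (edgeR, adjusted p under 0.05, with 13.5% of all 15469 genes higher), with a median log2 difference of 0.41 and quartiles of 0.22 and 0.61, against -0.03 over other autosomal genes. Without Dom WT replicate number 2, 431 genes were higher and 6 lower. In KO cells 358 of 983 were higher and 13 lower (8.35% of all higher), with a median of 0.27. For reference, 3 copies to 2 would give 0.58 by arithmetic. With 1 value per time course the medians were nearly the same, 0.40 in WT and 0.24 in KO cells, and 890 of 1023 and 825 of 1032 genes were above 0, but edgeR called 0 chromosome 5 genes in either, with 429 and 267 at an unadjusted p under 0.05. The calls for single genes in total RNA below therefore rest on counting the days of a course as separate samples, and no such call is made without it. In ES cells of the KO clones the median was 0.29, with 0 of 1013 genes called by edgeR, 232 at an unadjusted p under 0.05 and 53 called higher by DESeq2. Single genes overlapped far more between the lines in total RNA than in share: every Cast WT replicate was above every Dom WT replicate for 53 of 568 genes (0.725% of all) and every KO replicate for 9 (0.147% of all).

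The KO result depended on the clone. D5 alone against A3 gave 202 genes higher and 24 lower with a median of 0.19, and G6 alone 389 higher and 8 lower with a median of 0.33. D5, with the higher Cast share, thus had the smaller total difference. In the median level of the 568 genes relative to other autosomes (log2, each gene centred on its mean over all replicates), D5 was 0.138 to 0.201 at day 2 where Cast WT was 0.328 to 0.372 and G6 0.303 to 0.337. On the same scale Dom WT and A3 lay between -0.178 and -0.116 at days 2 to 7. On the Dom allele alone, D5 was at -0.158 to -0.068 at day 2, against 0.114 to 0.148 in Cast WT, 0.123 to 0.144 in G6 and 0.233 to 0.236 in Dom WT. On the Cast allele D5 was at 0.358 to 0.378 and Cast WT at 0.490 to 0.529, against -0.435 to -0.431 in Dom WT.

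Gene by gene, the total RNA differences of WT and KO cells, which share no libraries, were correlated, though larger in WT: across the 568 genes Pearson's r was 0.70 and Spearman's rank correlation 0.70, a description over genes, which are not independent replicates and which share the strain difference and the genotype of the lines. Of the 568, 240 passed the threshold in the same direction in both fits, 239 of them higher and 1 lower in the Cast line. The share of all genes that passed in both fits was not counted. In the single fits 13.5% of all genes were higher in WT and 8.35% in KO cells. The difference was slightly larger in the upper part of the expression range: the median in WT was 0.37, 0.39 and 0.49 over the low, middle and high groups of 190, 189 and 189 genes, and in KO cells 0.26, 0.23 and 0.31. Across the same genes the total difference had r = 0.27 with gene span and -0.18 with position in WT, and -0.17 with the share difference.

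Among genes past the threshold in both fits, the largest total RNA differences were those of Ldb2, Anxa3, Fras1, Ccng2 and Gsap. Ldb2 encodes a LIM domain-binding cofactor of transcription; it was 13.6, 17.9 and 32.5 CPM (lowest, median, highest) in Dom WT and 23.5, 54.4 and 66.2 in Cast WT at days 2 to 7. These ranges overlapped at their edges, and the log2 difference was 1.35 ± 0.21 (SE, adjusted p 0.0002 by edgeR), with 1.20 ± 0.30 in KO cells. Anxa3, a calcium-dependent phospholipid-binding annexin, was 6.48, 21.1 and 85.4 in Dom WT and 14.1, 145 and 174 in Cast WT, with a difference of 1.69 ± 0.18 (adjusted p 4.1e-06) and, in KO cells, 0.70 ± 0.25 (adjusted p 0.048). The KO call of Anxa3 was lost in 17 of the settings that leave out a library. Fras1, an extracellular matrix protein of basement membranes, differed by 1.31 ± 0.13 and 0.82 ± 0.12. The cyclin gene Ccng2 (1.14 ± 0.16 and 0.86 ± 0.13) and Gsap (1.15 ± 0.19 and 0.80 ± 0.22) completed the group, and Gsap combined its large total difference with a share difference of 0.127, under the median.

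The smallest differences that still passed were those of Uspl1, Vps33a, Sdad1 and Rnf34. Vps33a, a tethering factor of the lysosome, was 22.2, 25.2 and 28.4 CPM in Dom WT and 23.8, 29.3 and 35.6 in Cast WT, a log2 difference of 0.32 ± 0.08 in WT and 0.18 ± 0.06 in KO cells (adjusted p 0.0054 and 0.043, edgeR). Its allele share moved fully: 0.460, 0.513 and 0.558 in Dom WT and 0.641, 0.679 and 0.735 in Cast WT, with no overlap. The other genes of this group showed the same combination of a small total difference, 0.23 to 0.27 in WT, with a shifted share. Sdad1, which acts in ribosome biogenesis, had shares of 0.438 to 0.497 in Dom WT and 0.599 to 0.661 in Cast WT. Uspl1, a SUMO protease, lies in the distal segment where Dom WT replicates differ, and its WT call was lost in 7 settings that leave out a library. The KO calls of Vps33a and Sdad1 were lost in 23 and 7 such settings.

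A gene was taken to depart from the response when the 95% interval of its difference lay, in both the WT and KO fits, under the midpoint between 0 and the chromosome 5 median (share difference 0.0864 in WT and 0.0879 in KO, total log2 difference 0.20 and 0.13). By share 2 of 568 were under the limit, Pebp1 and A930011G23Rik, but for the latter, whose share was already close to 1, the limit is not informative. At the low share of Pebp1 a given change of the allele ratio also moves the share less than in mid-scale. The fixed limit is therefore easier to fall under for Pebp1 as well. Pebp1, whose start region is printed above, encodes a Raf kinase inhibitor protein and lies at chr5:117282650-117287564. Its Cast share at days 2 to 7 was 0.034, 0.131 and 0.253 (lowest, median, highest) in Dom WT, 0.042, 0.139 and 0.239 in Cast WT, 0.037, 0.143 and 0.262 in A3, 0.071, 0.158 and 0.225 in D5 and 0.027, 0.147 and 0.211 in G6. All 5 clones overlapped almost fully at this low level, and the share difference was 0.003 with a 95% interval of -0.057 to 0.064 in WT and -0.006 (-0.050 to 0.038) in KO cells. Its total RNA was nevertheless higher in the Cast line, by 0.44 ± 0.12 in WT (adjusted p 0.013, edgeR) and 0.54 ± 0.12 in KO cells (adjusted p 0.003), with Dom-allele RNA higher by 0.60 and 0.73. Fewest allelic fragments of Pebp1 in any of these replicates were 38, so its shares are the less precise ones, and counts of a gene with closely related copies elsewhere can be affected by the unique mapping.

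A930011G23Rik, an uncharacterised transcript at chr5:99297243-99729060, was at the other end of the scale, where a share has little room to rise, so it is not shown to depart from the other genes. At days 2 to 7 its share was 0.694, 0.909 and 0.974 in Dom WT and 0.775, 0.895 and 0.977 in Cast WT, so nearly all allele-assigned fragments came from the Cast chromosome in both lines. The share difference was 0.008 (-0.029 to 0.046) in WT and 0.028 (-0.007 to 0.064) in KO cells, while total RNA was 0.97 ± 0.17 higher in WT (adjusted p 0.00042, edgeR). The groups overlapped almost fully. At days 15 to 35 its share was lower in both lines, 0.562 to 0.641 in Dom WT and 0.574 to 0.756 in Cast WT, and the line difference was 0.102 (adjusted p 0.019 by limma, WT and KO together).

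By total RNA, 6 of 568 genes were under the limit in both fits: 9230114K14Rik, Mrps17, Camkk2, 5730422E09Rik, Rfc3 and Evc2. Their shares moved with those of the rest of the chromosome, with differences of 0.157 to 0.252 in WT and 0.119 to 0.195 in KO cells. 9230114K14Rik and 5730422E09Rik are RIKEN transcripts, and Rfc3 and 5730422E09Rik lie in the distal segment that was higher in some Dom WT replicates. The mean relative level of 5730422E09Rik was 0.54 in those replicates, 0.06 in the other Dom WT and 0.10 in Cast WT. For Rfc3 these means were 0.40, 0.18 and -0.055. Their place under the WT limit is given with those replicates included only. Against A3, whose share there was 0.472 to 0.500, the KO differences were -0.18 ± 0.11 for Rfc3 and -0.30 ± 0.15 for 5730422E09Rik. The clones were unlike in 5730422E09Rik: over all their replicates its mean relative level was 0.05 in A3, 0.04 in G6 and -0.51 in D5. For Rfc3 these means were -0.03, -0.05 and -0.15.

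Mrps17, which encodes a protein of the small mitochondrial ribosomal subunit and lies at chr5:129715527-129718691, was the 1 gene of the 568 measured for share that was lower in the Cast line in both fits. It was 10.1, 12.1 and 14.6 CPM in Dom WT, 6.94, 8.32 and 13.8 in Cast WT, 7.96, 10.8 and 15.7 in A3, 6.04, 8.52 and 15.7 in D5 and 5.58, 6.25 and 14.4 in G6. The ranges overlapped, with lower medians in all 3 Cast-line clones, and the log2 difference was -0.34 ± 0.10 in WT and -0.41 ± 0.12 in KO cells (adjusted p 0.014 and 0.017, edgeR). Its Cast share was 0.130 to 0.207 in Dom WT and 0.235 to 0.512 in Cast WT, without overlap. The Cast-allele difference was 0.68 and the Dom-allele difference -0.73 in WT, the latter larger in size than the chromosome 5 median of -0.16.

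Camkk2, the kinase that activates CaM kinases and AMP-activated kinase, had the same pattern at a higher share. It was 14.4, 20.5 and 25.9 CPM in Dom WT and 13.6, 15.4 and 19.6 in Cast WT, with a total difference of -0.16 ± 0.11 (adjusted p 0.29) and, in KO cells, -0.36 ± 0.14 (adjusted p 0.078, edgeR). Neither passed the threshold. The Dom-allele difference was -0.71 ± 0.11 in WT and the Cast-allele difference 0.24 ± 0.12. The windows of Pebp1, Mrps17 and Camkk2 held 28, 17 and 42 CG, and so few genes can neither show nor exclude a relation to the departure.

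The other genes are described by 7 lists of roles, beside medians of 0.41 in WT and 0.27 in KO cells over all chromosome 5 genes tested for total RNA and of -0.00335 and 0.0101 over all genes. In total RNA 57.1% of chromosome 5 genes were higher in WT and 36.4% in KO cells, against 13.5% and 8.35% of all genes. In share 99.6% were higher in both, against 10.4% and 10% of all genes. List counts near the chromosome 5 percentages cannot be read as particular to a role. Of the chromatin regulators, all 19 measured genes were higher in share in WT, in KO cells, at days 15 to 35 and in ES cells. By total RNA, 15 of 21 tested were higher in WT (median 0.40) and 7 of 21 in KO cells (median 0.21), and none was lower in either. Kmt2e, which encodes a SET and PHD domain protein of the MLL family, lies at chr5:23434428-23504229. It was 143, 196 and 321 CPM in Dom WT and 251, 360 and 657 in Cast WT, a difference of 1.04 ± 0.10 (adjusted p 2.7e-06, edgeR). In KO cells it was 133, 189 and 290 in A3, 193, 301 and 498 in D5 and 258, 373 and 533 in G6 (0.90 ± 0.12). Its share was 0.486 to 0.499 in Dom WT and 0.645 to 0.687 in Cast WT. Unlike the median gene, its Dom-allele RNA was higher in Cast WT, by 0.39 ± 0.11 (adjusted p 0.014). Kmt2c, the histone H3K4 methyltransferase MLL3, was 451, 477 and 562 in Dom WT, 666, 858 and 956 in Cast WT, 400, 470 and 546 in A3, 548, 608 and 677 in D5 and 628, 809 and 955 in G6. No Cast-line replicate overlapped with the Dom-line replicates of the same genotype, and the differences were 0.83 ± 0.09 and 0.61 ± 0.13. Trrap, the scaffold of histone acetyltransferase complexes, lies in the D5 segment and had a share of 0.774 to 0.809 in D5, against 0.682 to 0.713 in Cast WT and 0.675 to 0.700 in G6. Its total difference was 0.70 in WT and 0.69 in KO cells.

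All 16 replication and cell cycle genes had a higher share in each of the 4 comparisons, and 10 of 16 were higher in total RNA in WT and 9 of 16 in KO cells (medians 0.35 and 0.27). Dbf4, the activator of the Cdc7 kinase at replication origins, differed by 0.63 ± 0.08 and 0.52 ± 0.08. Cdk6, the G1 kinase, differed by 0.44 ± 0.11 and 0.42 ± 0.13 (adjusted p 0.0079 and 0.029, edgeR). Rfc3, described above, was the exception that fell under the limit. Mcm7, a subunit of the replicative helicase, differed by 0.36 in WT and by 0.33 in KO cells, where it did not pass. The lists overlap, since Baz1b, Rfc2, Fzd9, Bcl7b, Stx1a and Eif4h are in the Williams syndrome region as well as in a role list.

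Signalling receptors and ligands had the highest list medians in both fits, with 9 of 13 higher in total RNA in WT (median 0.79) and 6 of 13 in KO cells (median 0.60). For share, 4 of them reached the fragment minimum, and all 4 were higher at days 2 to 7. Hgf, the hepatocyte growth factor ligand, differed by 1.64 ± 0.20 in WT and 1.22 ± 0.18 in KO cells. The Wnt receptor Fzd1 differed by 1.09 ± 0.18 and 1.02 ± 0.16, and the co-receptor Tgfbr3 by 1.13 ± 0.14 and 0.63 ± 0.20. Kit, the stem cell factor receptor, differed by 0.67 ± 0.23 and 0.65 ± 0.18 (adjusted p 0.038 and 0.014, edgeR), and its WT call was lost in 9 settings that leave out a library.

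Among axon guidance and neuronal genes, 5 of 17 were higher in total RNA in WT and 5 of 17 in KO cells, with medians of 0.32 and -0.02. The semaphorins Sema3c (0.91 ± 0.15 and 0.75 ± 0.17), Sema3d (1.09 ± 0.14 and 1.01 ± 0.20) and Sema3e (1.38 ± 0.17 and 0.93 ± 0.20), secreted guidance cues, were among them. By share, 7 of 7 were higher in both. Of the neural patterning factors, 3 of 7 were higher and 1 lower in WT and 2 of 8 higher and 1 lower in KO cells. The lower one was Gbx1, a homeobox gene of the neural tube (-0.97 ± 0.27 and -1.09 ± 0.21). Rest, the repressor of neuronal genes, differed by 0.33 ± 0.08 and 0.33 ± 0.06 in total RNA with a share difference of only 0.109 and 0.115. The part of differentiation stage in these differences was not tested. The 4 endoderm markers moved with clone: they summed to 6.06, 24.2 and 68.4 CPM (lowest, median, highest) in Dom WT, 35.7, 66.8 and 191 in Cast WT, 11.7, 45.7 and 92.4 in A3, 7.81, 16.3 and 56.0 in D5 and 69.0, 119 and 225 in G6. G6 and D5 did not overlap, and G6 also had the larger total RNA difference of the pair. The 6 pluripotency markers summed to 88.3, 338 and 842 CPM in the Dom line and to 137, 247 and 485 in the Cast line at days 2 to 7.

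In the Williams syndrome region, a block of genes deleted together in that human disorder, 9 of 18 were higher in total RNA in WT and 2 of 18 in KO cells (medians 0.38 and 0.19), and all 10 measured genes had a higher share at days 2 to 7 in both. Translation genes had 5 of 9 higher in WT and 2 of 9 in KO cells (median 0.30 in both), with all 9 higher in share. Ribosomal protein genes have many near-identical processed copies, so their counts are uncertain. Per kilobase of annotated transcript, the highest of the 568 genes in WT at days 2 to 7 was Actb at 100.9 CPM per kilobase, followed by Rpl9 (45.6), Hnrnpdl (43.9), Rpl6 (40.4), Rpl5 (35.6), Ran (30.5), Rplp0 (30.1), Mcm7 (25.5), Rpl21 (22.8) and Hnrnpd (20.4). The total RNA differences of these 10 in WT ran from -0.06 for Rpl21, in the distal segment, to 0.53 for Hnrnpd, an AU-rich element binding protein. Ran, the nuclear transport GTPase, had a share difference of 0.091 in WT and 0.118 in KO cells, under the chromosome 5 median but past the threshold.

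Over days, the share difference held and the total RNA difference shrank. The median share in Cast WT was 0.633 and 0.643 at day 2, 0.647 to 0.661 at day 7, 0.658 at day 15, 0.685 at day 21 and 0.595 at day 35. D5 went from 0.657 to 0.661 at day 2 to 0.671, 0.697 and 0.681 at the 3 late days, and G6 from 0.632 to 0.639 to 0.667, 0.670 and 0.655. The G6 value of day 35 joins R1 at 0.667 and R2 at 0.643. The late values rest on 1 replicate each, and Cast WT at day 35 was the 1 late Cast-line replicate below the range of its clone at days 2 to 7. The level of the 568 genes relative to other autosomes went in Cast WT from 0.328 to 0.372 at day 2 to 0.180 to 0.248 at day 7, and was -0.024, -0.119 and -0.169 at days 15, 21 and 35. In G6 it was 0.303 to 0.337, 0.072 to 0.137, and then -0.105, -0.192 and -0.257. In D5 it was 0.138 to 0.201, -0.093 to -0.018, and then -0.203, -0.166 and -0.254. Dom WT, at -0.171 to -0.116 through days 2 to 7 and -0.211 to -0.134 at days 15 to 35, moved less, and A3 was at -0.213 to -0.144 at the late days. The lines overlapped at day 21, and at day 35 all 3 Cast-line replicates were below both Dom-line replicates. By allele, the Dom-allele level in Cast WT went from 0.114 to 0.148 at day 2 to -0.481 at day 21 and the Cast-allele level from 0.490 to 0.529 to 0.119.

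The change was tested as the interaction of line with period, over all 22 Dom-line and 36 Cast-line replicates of days 2 to 35, libraries that the comparisons above also use. For total RNA, 215 of 1021 genes had a lower Cast-minus-Dom difference at days 15 to 35 than at days 2 to 7 and 7 a higher one (edgeR, adjusted p under 0.05, 8.36% of all genes in either direction), with a median of -0.32. Sema3e (-1.59 ± 0.34), Gsap (-1.57 ± 0.40), Prom1 (-1.59 ± 0.26), a membrane glycoprotein of progenitor cells, Ccng2 (-1.27 ± 0.21) and Fras1 (-1.10 ± 0.21) were among the 215, as were Dbf4 (-0.65 ± 0.14) and Kmt2e (-0.55 ± 0.16). The 7 with a higher difference, named after their values were seen apart from Evc2, were 1700015F17Rik, Cc2d2a, Evc2, Igfbp7, Slc10a6, Spon2 and Tbx5. Without clone G6 the counts were 112 and 2, and without the Dom WT replicates with the distal segment 91 and 1. With WT alone 2 genes were called and with KO alone 28 in the smaller direction. At days 15 to 35 themselves, 3 of 946 genes were higher in total RNA (0.362% of all) and 3 lower, with a median of 0.04, and 144 had an unadjusted p under 0.05. Each count was 0.317% of the 946, and 1.06% of other autosomal genes were lower. The counts are thus no higher than elsewhere. The higher ones were Adamts3 (1.14 ± 0.23), Cldn12 (0.75 ± 0.13) and Gatad1 (0.56 ± 0.11), the lower ones Galnt9 (-2.01 ± 0.40), Ksr2 (-1.62 ± 0.33) and Wasf3 (-1.27 ± 0.28), named after their values were seen. None was called without Dom WT days 21 and 35.

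Fibroblast marker RNA, measured with the list for feeders, also differed at the late days. Feeders had been removed by pre-plating, and which cells the RNA came from was not tested. The 5 feeder markers, all 5 present in the count files, summed to 371, 1420 and 4620 CPM (lowest, median, highest) in the 6 Dom-line replicates and to 224, 3776 and 15048 in the 9 Cast-line replicates of days 15 to 35. At days 15, 21 and 35 they were 224, 2110 and 7695 in Cast WT, 2770, 3776 and 15048 in D5, 1058, 6771 and 12868 in G6, 2075, 371 and 1778 in Dom WT and 4620, 756 and 1062 in A3. At day 52 the sums were 7742 in Dom WT and 9580 in A3. The highest sums were in D5 and G6 at day 35, whose median shares were 0.681 and 0.655. Cast WT at day 35, with the lowest share, had a sum of 7695 and a share of 0.485 over other autosomes. Over all late replicates of days 15 to 35 the share over the reference autosomes was 0.477 to 0.488. The part of fibroblast marker RNA in the late results was not tested. Late lists of neurons gave sums of 79.5 to 769 in the Dom line and 78.8 to 1050 in the Cast line, and the NPC markers 272 to 423 and 129 to 914.

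By share, 8 of 568 genes changed their line difference between the periods, 5 to a larger and 3 to a smaller one (limma, 3.33% of all genes in either direction), and the median change over the 568 was 0.008. These were 0.880% and 0.528% of the 568, against 0.672% and 0.836% of other autosomal genes. The count therefore does not set chromosome 5 apart, and the genes are described singly. Stag3, a cohesin subunit of meiosis, had shares of 0.084, 0.148 and 0.192 at days 2 to 7 and 0.263, 0.267 and 0.346 at days 15 to 35 in Cast WT, which did not overlap, and in Dom WT 0.046, 0.102 and 0.128 and then 0.065, 0.161 and 0.174. Its change of the line difference was 0.111 (adjusted p 0.0064). Stag3 was also the 1 gene whose Dom WT share lay outside 0.1 to 0.9. Stard13, in the distal segment, had shares of 0.324, 0.387 and 0.463 and then 0.419, 0.542 and 0.598 in Cast WT and a change of 0.111 (adjusted p 0.0076).

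Evc2, a ciliary protein of hedgehog signalling that had been under the total RNA limit, differed more in both measures later. Its share was 0.462, 0.543 and 0.611 and then 0.597, 0.613 and 0.674 in Cast WT, and 0.288, 0.367 and 0.413 and then 0.279, 0.310 and 0.324 in Dom WT. The change of the share difference was 0.0943 (adjusted p 0.0066, limma) and that of the total RNA difference 0.76 (adjusted p 0.0094, edgeR). Nudt9 (0.0785) and Srpk2 (0.0347) were the other genes with a larger share difference later. Sema3c, Ugdh and Slc4a4 had a smaller one: in Sema3c the share was 0.329, 0.370 and 0.572 and then 0.568, 0.570 and 0.618 in Dom WT, and 0.453, 0.597 and 0.738 and then 0.682, 0.745 and 0.757 in Cast WT. The calls for Nudt9 and Sema3c were lost in 10 and 8 settings that leave out a library, and none of the 8 was called with WT alone or KO alone. Without Cast WT day 35, 19 genes had a larger difference later.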

How the data were processed

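ChrRNA-seq was analysed in 72 libraries of the WT and SmcHD1 KO clones. The authors removed rRNA reads with Bowtie2 2.3.2, mapped the rest with STAR 2.4.2a to mm10 with strain-variable bases masked, kept uniquely mapped fragments, assigned them to a parental genome with SNPsplit and counted them strand-specifically over whole transcripts, introns included, with featureCounts; the deposited values are total, Cast and Dom counts per gene. Whole transcripts mean that unspliced RNA weighs heavily and that overlapping genes on one strand cannot be separated.

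R1 and R2 of a replicate were summed. Total counts were tested with edgeR 4.0.16 (filterByExpr, TMM, quasi-likelihood test), each allele likewise with total-count library sizes, and the Cast share with limma 3.58.1 in R 4.3.3, with day in the model (and genotype in the late and interaction fits) and Benjamini-Hochberg adjustment over all genes tested; intervals are 95%. The share needed at least 30 allelic fragments in every library, and CPM are fragments scaled to the library total. The relative level adds 0.5 before log2. All genes were placed on mm10.

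The members, lists and limits were chosen with earlier results of these data known. Genes were named as the 5 largest and 5 smallest differences past the threshold in both fits, those under the midpoint limit in share or total RNA (up to 10 each), the 5 largest share changes between periods, the 10 highest levels per kilobase and the list genes. Replicate numbers did not pair: over 8 WT pairs correlations of deviations were -0.075 to 0.400, and over 16 KO pairs -0.644 to 0.167. Alternatives were DESeq2 1.42.0, other scalings, filters, allelic minimums, single clones, 1 value per time course and left-out replicates.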

Additional observations from a re-analysis of the deposited data

Results flagged for a closer look

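The change of the line difference in total RNA between days 2 to 7 and days 15 to 35, tested as an interaction, differed between the periods for 215 genes with a smaller and 7 with a larger difference later. The line difference in Cast share differed between the periods for 8 genes: Stag3 (0.111), Stard13 (0.111), Evc2 (0.0943), Nudt9 (0.0785), Srpk2 (0.0347), Slc4a4 (-0.0473), Ugdh (-0.0691) and Sema3c (-0.0907), each as the change of the Cast-minus-Dom share difference. Over all genes tested, 3.33% changed in either direction. Day 52, which exists in the Dom line alone and enters no comparison, held a median Cast share of 0.336 in Dom WT over the genes past Zscan25.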

How the results depend on the processing

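The higher Cast share in the Cast line was kept under every alternative run. Medians near 0 changed sign: total RNA at days 15 to 35 with library totals and with KO alone, and the change of share between periods with WT alone (values below). Leaving out each replicate in turn left 566 to 566 genes higher in share in WT at days 2 to 7 (median 0.172 to 0.174), 564 to 566 in KO (0.174 to 0.177), 557 to 564 at days 15 to 35 (0.177 to 0.192, the highest without Cast WT day 35) and 354 to 467 in ES cells (0.174 to 0.183, the lowest count without A3 replicate 1). For total RNA it left 510 to 553 higher and 10 to 14 lower in WT (median 0.403 to 0.426), 293 to 363 and 12 to 18 in KO (0.249 to 0.285), and 0 to 7 and 0 to 9 at days 15 to 35 (0.004 to 0.054; none without Dom WT day 35, most without A3 day 15). In ES cells it gave 0 to 298 higher and 0 to 30 lower (0.218 to 0.365), the most without D5 replicate 2, where the lone D5 sample is assumed to vary like the others. For the change between periods it gave 4 to 23 higher and 134 to 282 lower genes in total RNA (-0.339 to -0.301; 134 without A3 day 35, 23 and 282 without A3 day 15) and 4 to 19 and 0 to 8 in share (0.00431 to 0.0159; 19 without Cast WT day 35, 0 without A3 day 21, 8 without A3 day 15).

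With D5 alone the KO comparison gave 202 higher, 24 lower and a median of 0.188 in total RNA and 0.187 in share, and with G6 alone 8 lower, 0.330 and 0.164. Requiring 100 allelic fragments, which left 354 genes, gave 353 higher in share in KO, 353 in WT and 352 at days 15 to 35. With library totals in place of TMM the median total RNA difference of other autosomal genes was -0.12 in WT, -0.12 at days 15 to 35 and -0.19 in ES cells, against -0.03, 0.01 and -0.05. With them the total RNA median was 0.318 in WT, -0.0937 (7 lower) at days 15 to 35 and 0.148 in ES cells. The Cast-allele medians became 0.787, 0.376 (158 higher) and 0.735, the Dom-allele medians -0.255 (247 lower), -0.724 (394 lower) and -0.323 (15 lower), and the change between periods -0.377. At days 15 to 35 DESeq2 called 28 higher and 22 lower, R1 and R2 kept separate 5 higher, WT alone 0 and 0 (median 0.0799, share 0.167), and KO alone 0 and 0 (-0.000674, share 0.191). In ES cells DESeq2 called 53 higher and no filter gave 0.244. Summed fragments gave a WT share difference of 0.176 at days 15 to 35 and a change of 0.00569 within Cast WT.

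The following were chosen after seeing the data. With days 3, 5 and 7 summed per time course, edgeR called 0 higher and 0 lower in total RNA in WT and 0 and 0 in KO, where 2 against 3 and 2 against 4 courses were compared. At days 15 to 35, 0 and 0 genes were called without Dom WT days 21 and 35, and without Cast WT day 35 1 was lower and the median share difference was 0.192. In WT at days 2 to 7, 431 genes were higher and 6 lower without Dom WT replicate number 2. For the change between periods in total RNA, without D5 2 were higher, without G6 2 higher and 112 lower, with WT alone 0 and 2, with KO alone 1 and 28 (-0.269), and without the Dom WT replicates with a low distal share 1 and 91. In share the counts were 3 and 1 without D5, 2 and 1 without G6, 0 and 0 with WT alone (-0.00485) or KO alone (0.0151), and 1 and 0 without those Dom WT replicates. The causes of these differences were not tested.

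With the replicate number as a block, 567 genes were higher and 12 lower in WT total RNA, 371 and 16 in KO and 9 and 4 at days 15 to 35, and 566, 566 and 563 were higher in share. Whether the numbers pair the samples was not settled, and 10 of 26 Dom-line replicates correlated highest with their own number, as a hint from the data and not the design. The 30-fragment minimum limits share to the better-expressed genes, late stages rest on 1 replicate per clone and day, and intervals cover the spread between these samples only.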
